A study of Mus musculus with 18 samples.

Results

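The genes described here are the MHC class II presentation genes H2-Aa, H2-Ab1, H2-Eb1, H2-DMa, H2-DMb1, Cd74 and Ciita. They were chosen by name, and all 7 were found among the 20878 genes measured in 18 tumors. The tumors grew from K7M2, an osteosarcoma line that was established from a Balb/c mouse, transduced with lentivirus carrying a control shRNA (ATRX-CT) or an shRNA against Atrx (ATRX-KD) and grafted under the skin. Hosts were immunocompetent Balb/c mice (Balb/cJ), from which 4 ATRX-CT and 4 ATRX-KD tumors were sequenced, or immunodeficient NSG mice (NOD.Cg-Prkdc scid Il2rg tm1Wjl/SzJ), from which 5 ATRX-CT and 5 ATRX-KD tumors were sequenced. All hosts were 6 to 8 weeks old and were stated to be female. The grafted cells were transduced cultures of 1 line, whole cages were assigned to a kind of graft, and the labels name no cage, so that cage effects and knock-down effects cannot be told apart.

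MHC class II molecules display peptides from material taken up by a cell to CD4 T cells, and in most tissues they are made by dendritic cells, macrophages and B cells. H2-Aa and H2-Ab1 encode the alpha and beta chains of the I-A molecule, and H2-Eb1 encodes the beta chain of I-E. Cd74, the invariant chain, fills the groove of new class II molecules and guides them to endosomes, where H2-DMa and H2-DMb1, the chains of the H2-DM heterodimer, exchange its remnant for peptides. Ciita, the class II transactivator, does not itself bind DNA and is recruited to a promoter stretch, with an X box and a Y box, that is bound by RFX, CREB and NF-Y. Interferon gamma induces Ciita in many cell types.

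Values are FPKM, in which the fragments of a gene are divided by its transcript length and the library's depth, so that levels of different genes can be compared per transcript length. In the annotation of the mm10 genome used for the values, H2-DMa (chr17:34122832-34139101), H2-DMb1 (chr17:34153191-34160229), H2-Ab1 (chr17:34263227-34269418) and H2-Eb1 (chr17:34305867-34316674) lie on the plus strand, each with 6 exons. H2-Aa (chr17:34282751-34287771), with 5 exons, lies on the minus strand between H2-Ab1 and H2-Eb1. Ciita (chr16:10480072-10527640, plus strand) and Cd74 lie on other chromosomes. Shared stretches of 75 nt were counted in a wider set of transcripts than this annotation, which holds 1 transcript of 1284 nt for H2-DMb1. Of all such stretches of H2-DMb1, 15.8% (254 of 1604) also occur in H2-DMb2, its near-identical neighbor, so that reads could be split between these genes. The other 6 genes share 0 such stretches with any other gene.

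Promoters of these genes are shown because the X and Y boxes are the part of a class II promoter where Ciita is recruited. The part of these boxes in the levels described here was not tested. RefSeq promoter sequences of the build GRCm38.p6, running from 250 bases before to 50 bases after an annotated start, were matched for 4 of the 6 genes looked for (Cd74 was left out) and for H2-DMb2. The 250 bases before the start were searched on both strands for TNGNAAC (X box letters) and ATTGG (Y box letters, CCAAT on the other strand). The motifs do not overlap each other in the stretches below, which run 5′ to 3′ on the strand of the gene, with the matches in capitals.
H2-Aa, chr17:34287860-34287914, minus strand: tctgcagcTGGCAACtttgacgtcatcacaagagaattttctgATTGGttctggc
H2-Eb1, chr17:34305766-34305819, plus strand: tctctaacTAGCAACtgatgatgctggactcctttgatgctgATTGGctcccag
H2-DMb1, chr17:34153087-34153141, plus strand: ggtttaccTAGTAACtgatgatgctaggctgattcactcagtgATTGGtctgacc
H2-DMb2, chr17:34145113-34145170, plus strand: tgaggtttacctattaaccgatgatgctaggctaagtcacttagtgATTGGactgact
H2-DMa, chr17:34122772-34122831, plus strand: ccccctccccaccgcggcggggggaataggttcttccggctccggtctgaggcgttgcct
In H2-Aa, H2-Eb1 and H2-DMb1 the X box letters begin 83, 93 and 96 bases before the start, and the Y box letters follow 35, 34 and 35 bases further on. An X followed by a Y on the gene's strand at a spacing of 34 or 35 bases, a rule set after these pairs were seen, occurred in 16 of 32851 promoter windows (0.0487%). These 16 include H2-Aa, H2-Eb1 and H2-DMb1, from which the spacing was taken. Alone, the X box letters occurred in 30.7% of windows and the Y box letters in 33.8%. In H2-DMb2 only the Y letters matched, and the 250 bases before the first H2-DMa start, of which the last 60 are shown, held neither. Another annotated H2-DMa start had a Y match 198 bases before it and no X match. H2-DMb1 held a further X match at 182 bases and H2-Eb1 a further Y match, on the other strand, at 35 bases.

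Depth and cell content bear on all values. From the steps between low FPKM values, between 14800000 and 24800000 fragments per library were estimated, and all 7 genes were above the level of 3 fragments in all 18 tumors. Atrx was measured at 10.3 to 26.0 FPKM in ATRX-CT and 7.88 to 21.5 FPKM in ATRX-KD tumors of Balb/c mice, and at 11.6 to 24.4 and 8.42 to 16.4 FPKM in NSG mice. The targeted gene thus overlapped between the groups in both hosts, in NSG mice only through ATRX-KD mouse 27. Its log2 difference was -0.34 ± 0.36 in Balb/c (SE, adjusted p = 0.999, limma) and -0.74 ± 0.22 in NSG mice (SE, unadjusted p = 0.0055, adjusted p = 0.061, limma). The study reported loss of the ATRX protein in the transduced line by Western blot. The osteoblast genes Sp7, Bglap and Ibsp reached at most 0.195, 0.431 and 0.0292 FPKM, while Spp1 (180.3 to 604 FPKM) and Col1a2 (218 to 594 FPKM) were high. T cell markers summed to 19.8 to 43.7 FPKM in Balb/c and 1.00 to 6.13 FPKM in NSG tumors, and NK cell markers to 37.8 to 151 and 0.128 to 0.723 FPKM. Transcripts of 4 Y-linked genes summed to 13.1 to 34.3 FPKM in NSG tumors and at most 0.0115 FPKM in Balb/c tumors, so that strain, immune state and sex of the host cannot be told apart. In bulk tumors, fewer cells of a type and less RNA per cell cannot be told apart either.

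Cd74 (chr18:60803849-60812652, plus strand) was the most abundant of the 7 genes. In Balb/c mice it was measured at 266, 493, 202 and 529 FPKM in the ATRX-CT tumors (mice 41, 43, 44 and 45) and at 543, 283, 350.3 and 544 FPKM in the ATRX-KD tumors (mice 56, 58, 59 and 60). In NSG mice it was measured at 132, 93.9, 116, 191 and 168 FPKM in the ATRX-CT tumors (mice 1 to 5) and at 215, 163, 135, 190.3 and 129 FPKM in the ATRX-KD tumors (mice 26 to 30). Tumors 43, 45, 56 and 60 were high and the other 4 Balb/c tumors lower, with ATRX-CT and ATRX-KD grafts in both sets, and only 1 NSG tumor (mouse 26) exceeded the lowest Balb/c tumor.

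The peptide-binding chains came next. In the same order of mice, H2-Aa was measured at 126, 274, 109 and 284 FPKM in ATRX-CT and 314, 157, 193 and 324 FPKM in ATRX-KD tumors of Balb/c mice. In NSG mice, H2-Aa was measured at 78.5, 46.9, 50.5, 135 and 104 FPKM in ATRX-CT and 115, 73.1, 81.6, 114 and 72.7 FPKM in ATRX-KD tumors. The same 4 Balb/c tumors were high again, and within the ATRX-CT tumors the hosts overlapped through NSG mouse 4. H2-Ab1, the partner of H2-Aa in I-A, was measured at 110.3, 209, 99.4 and 206 FPKM and at 227, 129, 184 and 255 FPKM in the ATRX-CT and ATRX-KD tumors of Balb/c mice. The H2-Ab1 levels of NSG tumors were 79.4, 37.2, 38.2, 114 and 93.8 FPKM with ATRX-CT and 97.2, 59.2, 76.6, 106 and 60.9 FPKM with ATRX-KD grafts. H2-Ab1 was thus ordered among tumors almost as H2-Aa was, and H2-Aa exceeded it in 17 of 18 tumors.

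H2-Eb1 was the peptide-binding chain whose levels did not overlap between the hosts. In Balb/c mice it was measured at 67.4, 144, 58.2 and 135 FPKM in ATRX-CT and 174, 81.3, 102 and 161 FPKM in ATRX-KD tumors. In NSG mice it was measured at 30.3, 17.3, 20.5, 48.9 and 35.9 FPKM in ATRX-CT and 42.7, 29.6, 35.1, 46.3 and 29.7 FPKM in ATRX-KD tumors. Every Balb/c tumor lay above every NSG tumor, between 58.2 and 174 against 17.3 and 48.9 FPKM. In NOD mice, from which NSG mice derive, the alpha chain that pairs with H2-Eb1 is not made, and the H2 haplotypes of both hosts differ from that of the reference genome. The part of such sequence differences in the H2 values was not tested.

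The H2-DM chains differed from each other. H2-DMa was measured at 31.7, 32.9, 32.3 and 35.9 FPKM in ATRX-CT and 30.1, 29.8, 32.5 and 34.3 FPKM in ATRX-KD tumors of Balb/c mice. In NSG mice H2-DMa was measured at 20.01, 17.1, 15.4, 20.8 and 17.03 FPKM in ATRX-CT and 20.5, 14.8, 10.7, 15.6 and 9.49 FPKM in ATRX-KD tumors. H2-DMa was nearly even among the 8 Balb/c tumors, the highest 1.204 times the lowest, and all lay above all 10 NSG tumors. H2-DMb1 was measured at 9.97, 16.0, 6.82 and 16.7 FPKM and at 18.8, 9.58, 14.0 and 18.9 FPKM in the ATRX-CT and ATRX-KD tumors of Balb/c mice. Its NSG levels were 5.86, 5.04, 5.29, 6.30 and 6.48 FPKM with ATRX-CT and 7.71, 4.87, 4.11, 7.55 and 3.81 FPKM with ATRX-KD grafts. H2-DMb1 followed the pattern of Cd74 and the peptide-binding chains, with a 2.77-fold range in Balb/c tumors.

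Ciita was the least abundant and the most variable. It was measured at 1.82, 4.32, 1.15 and 5.60 FPKM in ATRX-CT and 6.95, 1.79, 2.59 and 3.87 FPKM in ATRX-KD tumors of Balb/c mice. In NSG mice it was measured at 0.810, 0.557, 0.912, 1.398 and 1.63 FPKM in ATRX-CT and 1.27, 1.07, 1.26, 1.79 and 1.01 FPKM in ATRX-KD tumors. Its highest Balb/c level was 6.05 times its lowest, and within ATRX-CT tumors Balb/c mice 41 and 44 fell in the range of NSG tumors or just above it.

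**Figure D1:**
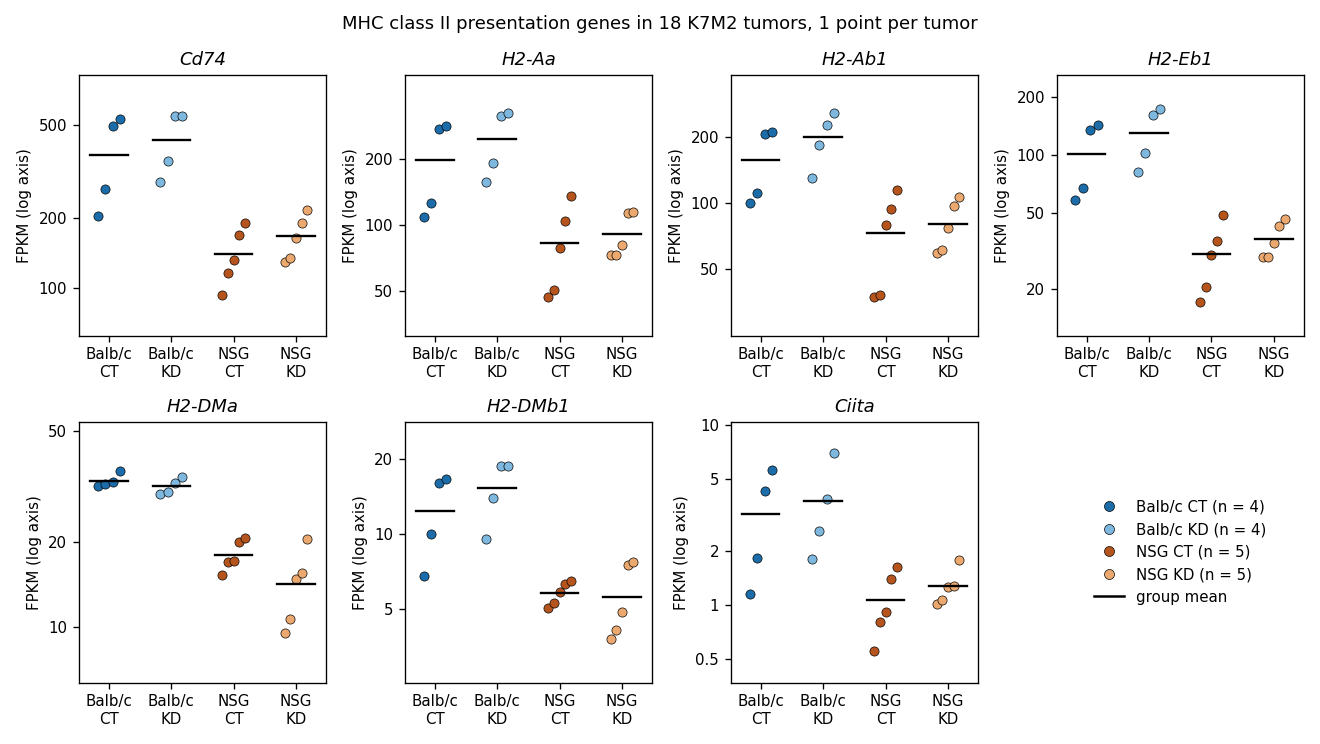
FPKM of each class II gene (log axis) in every tumor, by host and graft, with 1 point per tumor and a bar at the group mean. Balb/c tumors sit above NSG tumors for all 7 genes on average, with full separation for H2-Eb1 (58.2 to 174 against 17.3 to 48.9 FPKM) and H2-DMa, while ATRX-CT and ATRX-KD tumors of a host overlap.

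The order of the levels, Cd74 above H2-Aa, H2-Ab1, H2-Eb1, H2-DMa, H2-DMb1 and Ciita, was the same in nearly every tumor. Each gene exceeded the next in 18 of 18 tumors, apart from H2-Aa over H2-Ab1, which did so in 17, with a mean difference of 0.25 ± 0.14 on the log2 FPKM scale (SD, n = 18). H2-Eb1 and H2-DMa, although in the same order in 18 tumors, came as close as 0.013 on that scale in 1 NSG tumor, and they were 1.73 ± 0.58 apart in Balb/c tumors (SD, n = 8) and 1.03 ± 0.56 in NSG tumors (SD, n = 10).

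The first comparison asked whether the knock-down changed class II expression in the immunocompetent host. None of the 7 genes was called in Balb/c mice, where a call needs an adjusted p under 0.05 (limma, Benjamini-Hochberg over all genes) and a difference of at least 1 on the log2 (FPKM + 1) scale. The background was low, with 0.0068% of 14701 genes called (1 gene). The study, with DESeq, reported more genes for this contrast, changed in both directions, so that the low count holds for the present test only. Of the 7 genes 0 had an unadjusted p under 0.05 (limma), a count near the background, in which 4.14% of genes did. H2-Eb1 averaged 129.5 ± 44.7 FPKM in ATRX-KD and 101 ± 44.5 FPKM in ATRX-CT tumors (SD, n = 4 each), a log2 difference of 0.40 ± 0.35 (SE) with a 95% confidence interval of -0.40 to 1.19. Cd74 averaged 430.1 ± 134 and 372 ± 162 FPKM, a difference of 0.27 ± 0.36 (SE), and H2-DMa 31.7 ± 2.11 and 33.2 ± 1.88 FPKM, a difference of -0.065 ± 0.11. Over the 7 genes the differences ran from -0.065 to 0.40 with a median of 0.32 (adjusted p = 0.999 for each, limma), against a median of -0.0032 over all genes tested, and 6 were above 0. The groups overlapped for all 7 genes, which is near the background, in which 3.18% of all genes did not overlap. For H2-DMa the interval, -0.30 to 0.17, holds no doubling, whereas the intervals of H2-Aa, H2-Ab1, H2-Eb1, Cd74 and Ciita reached past 1.

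In NSG mice the knock-down was likewise followed by no call among the 7 genes (limma), where 0.464% of 14654 genes were called, and 0 of the 7 had an unadjusted p under 0.05, where 26.3% of genes did. H2-DMa showed the lowest adjusted p, at 14.2 ± 4.37 FPKM in ATRX-KD and 18.1 ± 2.27 FPKM in ATRX-CT tumors (SD, n = 5 each), a log2 difference of -0.37 ± 0.18 (SE; adjusted p = 0.222). H2-Eb1 was 36.7 ± 7.63 against 30.6 ± 12.7 FPKM, a difference of 0.33 ± 0.25 (SE; adjusted p = 0.443, limma). The 7 differences had a median of 0.22, against -0.0014 over all genes tested, with 5 above 0. For 0 of the 7 genes were the groups apart, a count near the background, in which 7.5% of all genes did not overlap. Macrophage markers summed to 3275 to 4518 FPKM in ATRX-CT and 2104 to 3699 FPKM in ATRX-KD tumors of NSG mice, and the 4 Y-linked host transcripts to 24.2 to 34.3 and 13.1 to 21.2 FPKM. Their part in the class II values was not tested. The difference between hosts in the effect of the knock-down was itself not called for any of the 7 genes (interaction in limma, adjusted p between 0.707 and 0.999, with 0 of 7 at an unadjusted p under 0.05, against 0% of 14803 genes called and 10.3% at an unadjusted p under 0.05), and it ran from 0.0011 for Cd74 to 0.40 for H2-DMb1.

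**Figure D2:**
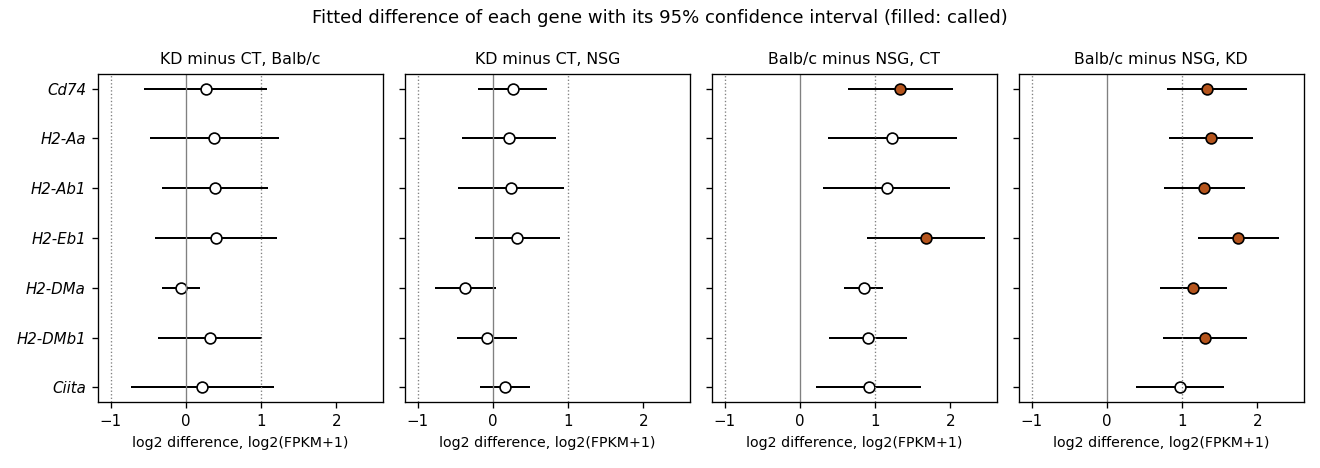
Fitted log2 (FPKM + 1) difference of each class II gene (points) with its 95% confidence interval (lines) in 4 comparisons, filled where called and with dotted lines at a doubling and a halving. The knock-down differences lie between -0.37 and 0.40, and the host differences between 0.85 and 1.75.

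The comparison of hosts within ATRX-CT tumors, which held the kind of grafted cell constant, gave higher means in Balb/c mice for all 7 genes. H2-Eb1 averaged 101 ± 44.5 FPKM in Balb/c (SD, n = 4) and 30.6 ± 12.7 FPKM in NSG tumors (SD, n = 5), 3.31-fold, with a log2 difference of 1.68 ± 0.35 (SE; adjusted p = 0.0266, limma). Cd74 averaged 372 ± 162 and 140.2 ± 39.1 FPKM, 2.66-fold, with a difference of 1.33 ± 0.31 (SE; adjusted p = 0.0447, limma). These genes were the 2 called, against 0.883% of 14828 genes called as higher in Balb/c mice. H2-DMa had the smallest adjusted p of the 7 (0.00154, limma) with a difference below a doubling, 0.85 ± 0.11 (SE), at 33.2 ± 1.88 against 18.1 ± 2.27 FPKM. H2-Aa (1.23 ± 0.38), H2-Ab1 (1.16 ± 0.38), Ciita (0.92 ± 0.31) and H2-DMb1 (0.90 ± 0.23) did not pass, with adjusted p between 0.0634 and 0.153 (limma). The median of the 7 differences was 1.16 and that of all genes tested 0.0084. Balb/c and NSG tumors did not overlap for 4 genes (H2-Eb1, H2-DMa, H2-DMb1 and Cd74), where 4.72% of all genes were apart in this direction.

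The calls in ATRX-CT tumors depended on single tumors. Without mouse 44 of the Balb/c group 4 genes were called, and without Balb/c mouse 43 or 45 or NSG mouse 1 or 2 there were 0. Leaving out Balb/c mouse 41 or NSG mouse 3, 4 or 5 left 1 call. Keratinocyte transcripts summed to 105 FPKM in Balb/c mouse 45, which was also high in class II genes, and to 18.4 FPKM in Balb/c ATRX-KD mouse 60. NSG ATRX-KD mice 26, 27 and 29 held them at 17.9, 13.3 and 21.6 FPKM and were kept when mice 45 and 60 were left out. Without mouse 45 the difference of H2-Eb1 was 1.5 ± 0.37 (SE; adjusted p = 0.0812, limma) and that of Cd74 1.13 ± 0.31 (SE; adjusted p = 0.117, limma), both still above a doubling, and 0 genes were called with 1 tumor fewer.

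Within ATRX-KD tumors, a comparison that shares no tumor with the previous one, 6 of the 7 genes were called as higher in Balb/c mice, against 1.12% of 14669 genes. H2-Eb1 again had the largest difference, 129.5 ± 44.7 FPKM in Balb/c (SD, n = 4) and 36.7 ± 7.63 FPKM in NSG tumors (SD, n = 5), 3.53-fold, with a log2 difference of 1.75 ± 0.24 (SE; adjusted p = 0.002, limma). H2-Aa was 2.70-fold higher, at 247 ± 84.4 against 91.3 ± 21.5 FPKM, and H2-Ab1 2.49-fold higher, at 199 ± 54.9 against 79.9 ± 21.0 FPKM (adjusted p = 0.0108 and 0.0119, limma). Cd74 was 2.58-fold, H2-DMb1 2.73-fold and H2-DMa 2.23-fold higher in Balb/c tumors (adjusted p = 0.00981, 0.015 and 0.0078, limma). Ciita averaged 3.80 ± 2.27 and 1.28 ± 0.305 FPKM, a ratio of means of 2.97, but its difference on the log2 (FPKM + 1) scale, which understates changes of low genes, was 0.97 ± 0.26 (SE; adjusted p = 0.0791, limma). The median of the 7 differences was 1.30 against -0.016 over all genes tested. All 7 genes were apart between hosts, where 5.08% of genes were apart in this direction. Without Balb/c mouse 60, 5 genes were called, H2-DMb1 falling out at 1.19 (adjusted p = 0.0545, limma). The NSG tumors of this comparison with keratinocyte transcripts near the level of mouse 60 were kept.

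Ratios between the genes within a tumor, which do not depend on the scaling of a library, overlapped between hosts for 5 of 6 pairs of genes. H2-Eb1 relative to H2-Ab1 was 0.611, 0.686, 0.586 and 0.657 in ATRX-CT and 0.765, 0.630, 0.557 and 0.631 in ATRX-KD tumors of Balb/c mice. In NSG mice this ratio was 0.381, 0.464, 0.537, 0.429 and 0.383 in ATRX-CT and 0.440, 0.499, 0.458, 0.438 and 0.487 in ATRX-KD tumors. All 8 Balb/c tumors were above all 10 NSG tumors, with a log2 difference of 0.54 within ATRX-CT and 0.47 within ATRX-KD tumors. Each had p = 0.0159 in a two-sided exact permutation test, the smallest that 4 against 5 tumors can give, and an adjusted p = 0.190 over the 24 tests of 6 ratios in 4 comparisons (exact permutation test).

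The other ratios overlapped in all 4 comparisons. H2-Aa relative to H2-Ab1 ran from 1.05 to 1.38 in Balb/c and from 0.988 to 1.32 in NSG tumors, and Cd74 relative to H2-Ab1 from 1.91 to 2.57 and from 1.66 to 3.04. H2-DMb1 relative to H2-DMa was higher in ATRX-KD than in ATRX-CT tumors of NSG mice by 0.29 on the log2 scale (exact permutation test, p = 0.0476, adjusted p = 0.381). H2-DMa relative to H2-Ab1 spread from 0.133 to 0.325 in Balb/c and from 0.139 to 0.460 in NSG tumors. Ciita relative to H2-Ab1 ran from 0.0116 to 0.0306 and from 0.0102 to 0.0239.

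**Figure D3:**
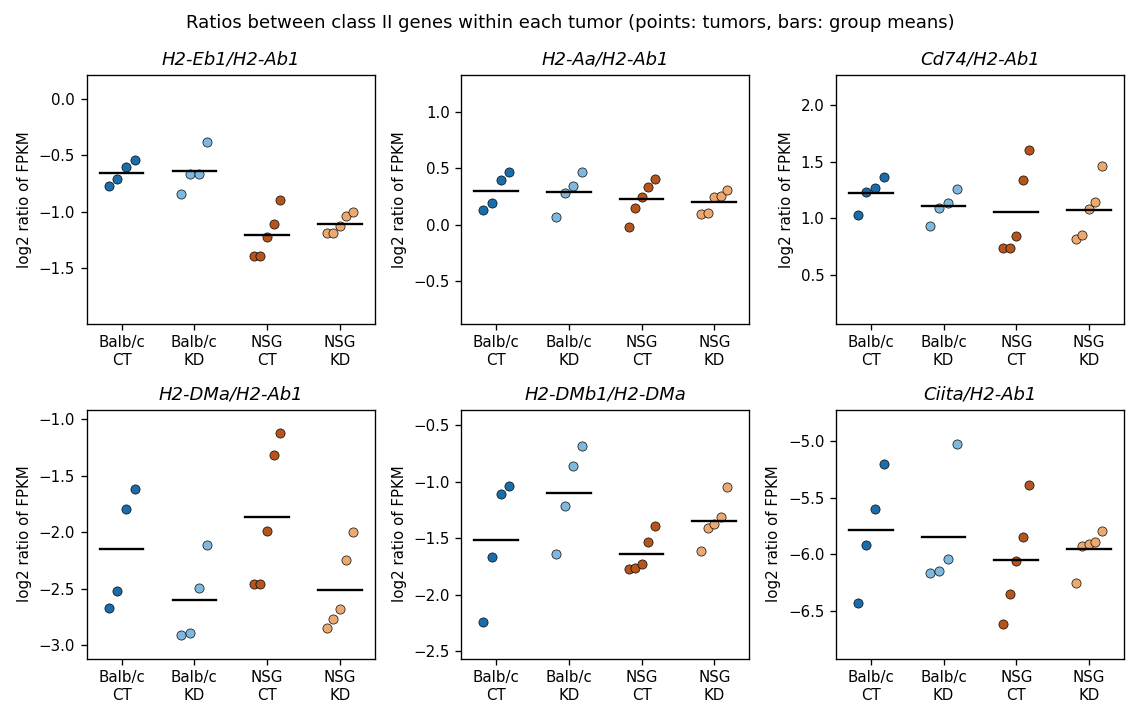
The log2 ratio of FPKM between class II genes in every tumor (points) by host and graft, with group means as bars and axes of equal length. H2-Eb1 relative to H2-Ab1 is higher in all Balb/c (0.557 to 0.765 before the log) than in all NSG tumors (0.381 to 0.537), and the other ratios overlap.

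The genes also varied together among tumors of 1 group. After centering on group means, log2 (FPKM + 1) of H2-Aa correlated with the mean of the other 6 genes at r = 0.98 (Spearman's rho = 0.94) over 18 tumors, as did Cd74 (r = 0.97, rho = 0.94), H2-Eb1 (r = 0.97, rho = 0.95), H2-Ab1 (r = 0.91, rho = 0.87), H2-DMb1 (r = 0.89, rho = 0.83) and Ciita (r = 0.84, rho = 0.83). H2-DMa followed least, with r = 0.46 (rho = 0.48). These values describe tumors that share the library of each measurement and carry no test.

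A property of the libraries moved with the class II level in Balb/c mice. The slope of each library along transcript length (in log2 units per doubling of length, relative to the mean of all libraries) was 0.144, 0.188, 0.211 and 0.120 in tumors 43, 45, 56 and 60, whose mean log2 (FPKM + 1) over the 7 genes was 6.22, 6.29, 6.42 and 6.36. In the other 4 Balb/c tumors the slope lay between -0.122 and -0.00017 and the mean between 5.16 and 5.87. The high class II tumors of Balb/c mice were thus those with relatively more signal on long transcripts, and they also had the highest Atrx, at 17.3 to 26.0 against 7.88 to 13.4 FPKM. In NSG mice the tumors with the largest slopes, mice 3 and 27 at 0.1002 and 0.124, had class II means of 4.27 and 4.57, and the highest mean, 5.10 in mouse 4, came with the lowest slope, -0.146. With the slope as a covariate, chosen after this was seen, host differences were 0.57 to 1.51 in ATRX-CT tumors with 0 genes called, and 0.85 to 1.67 in ATRX-KD grafts with 6 called, while the knock-down in Balb/c mice still gave 0 calls.

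**Figure D4:**
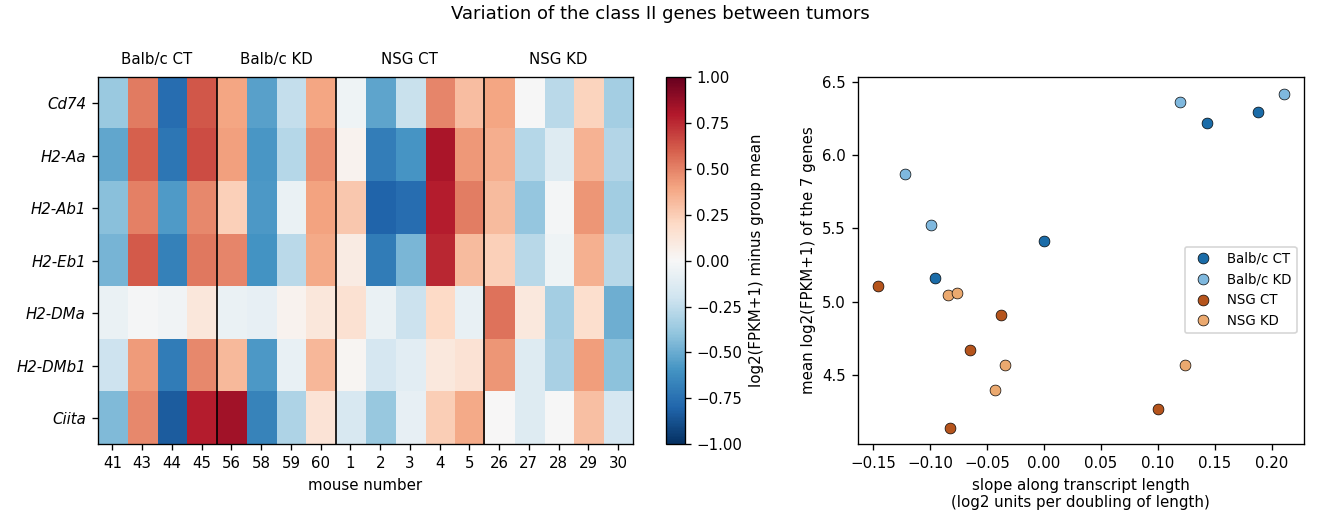
On the left, log2 (FPKM + 1) minus the group mean for each class II gene (rows) and mouse (columns), and on the right, the mean log2 (FPKM + 1) of the 7 genes against the slope of the library along transcript length. H2-DMa stays near its group means in Balb/c mice, and the 4 Balb/c tumors with means of 6.22 to 6.42 are those with slopes of 0.120 to 0.211.

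Genes that work with class II molecules were described from a list. The list of 38 partners had 34 members in the matrix and 33 tested in each host comparison, with 1 called as higher in Balb/c mice within ATRX-CT and 2 within ATRX-KD tumors, against 0.883% and 1.12% of all genes, and medians of -0.0061 and 0.14. Among the other class II chains, H2-DMb2, a copy of the H2-DM beta chain, averaged 8.03 ± 2.58 and 4.70 ± 1.25 FPKM in Balb/c and NSG ATRX-CT tumors, a log2 difference of 0.65 (adjusted p = 0.16, limma). H2-Oa and H2-Ob, chains of the H2-DM inhibitor H2-O, were low, at most 0.856 and 0.904 FPKM. The promoter-binding factors Rfx5, Rfxap, Rfxank, Nfya, Nfyb, Nfyc and Creb1 had 0 calls in any comparison, a count near the background, with medians of 0.0051 and -0.036 in the host comparisons.

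Endosomal processing genes were far more abundant and had 0 calls among 9. In the host comparisons 0.883% and 1.12% of all genes were called as higher in Balb/c mice, so that this count is near the background. Cst3, an inhibitor of cathepsins, averaged 628 ± 160 FPKM in Balb/c and 849 ± 105 FPKM in NSG ATRX-CT tumors, and Ctss, the protease that degrades the invariant chain, 452 ± 77.9 and 433 ± 90.0 FPKM. The median difference of the 9 genes was -0.17 in ATRX-CT and 0.14 in ATRX-KD tumors. The costimulatory genes Cd80, Cd86 and Cd40 and the ubiquitin ligases March1 and March8, which act on the turnover of class II molecules, also had 0 calls in the host comparisons, again near the background.

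The called partners were Lag3 and Ifng, both made by T and NK cells. Lag3, an inhibitory receptor for class II molecules, averaged 3.01 ± 0.918 FPKM in Balb/c and 0.565 ± 0.257 FPKM in NSG ATRX-CT tumors (log2 difference 1.34, adjusted p = 0.00144, limma), and 4.09 ± 2.36 and 0.520 ± 0.148 FPKM in ATRX-KD tumors (1.63, adjusted p = 0.00682, limma). Cd4, the coreceptor that binds class II molecules and is also found on myeloid cells, ranged from 3.20 to 6.15 FPKM in Balb/c and 1.00 to 5.62 FPKM in NSG tumors and was not called. Ifng ranged from 0.619 to 1.89 FPKM in Balb/c tumors and was listed at 0 in 9 of 10 NSG tumors, and it was called in ATRX-KD tumors (adjusted p = 0.000989, limma). It passed the filter of 0.1 FPKM only through the Balb/c tumors, so that a call as higher in Balb/c mice was the only one open to it. In ATRX-CT tumors the fitted difference of Ifng, 0.90, stayed under the threshold of 1. Ifngr1, Ifngr2, Jak1, Jak2 and Irf1, which carry or execute the interferon gamma signal, had 0 calls, a count near the background.

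Among 12 genes that interferon gamma induces, 1 was called as higher in Balb/c mice for ATRX-CT grafts and 4 for ATRX-KD grafts. Over all genes the shares were 0.883% and 1.12%. Cxcl9, a chemokine for T cells, averaged 11.7 ± 2.90 against 2.28 ± 0.296 FPKM in ATRX-CT tumors (log2 difference 1.92) and 23.3 ± 16.7 against 2.46 ± 1.13 FPKM in ATRX-KD tumors (2.66). The GTPase genes Gbp4 (1.78), Iigp1 (1.48) and Gbp5 (1.05) were called in ATRX-KD tumors (adjusted p between 0.00211 and 0.0423, limma). The list medians were 0.070 and 0.41, against 1.16 and 1.30 for the class II genes in the same comparisons.

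**Figure D5:**
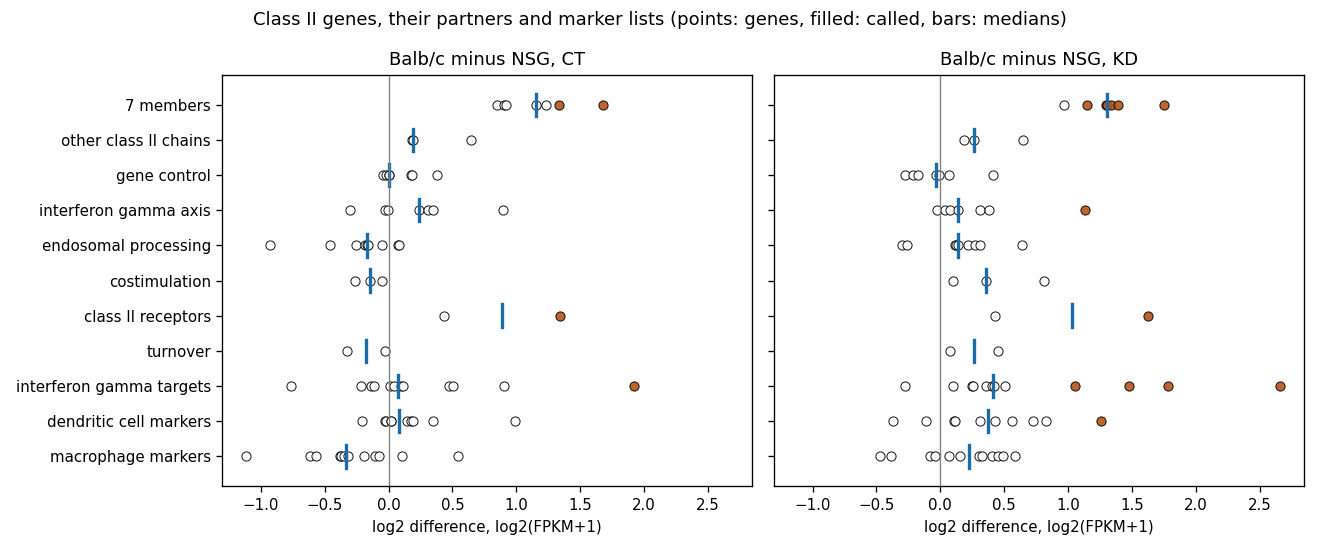
Log2 (FPKM + 1) differences between Balb/c and NSG tumors for single genes (points, filled where called) of the class II genes, their partners by role, interferon gamma targets and marker lists, with medians as bars. The class II genes have medians of 1.16 and 1.30, while the endosomal processing genes have medians of -0.17 and 0.14 and macrophage markers -0.33 and 0.23.

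Markers of the cell types that make class II molecules were measured beside these genes, and their part in the host difference was not tested. Over all genes, 0.883% and 1.12% were called as higher in Balb/c mice within ATRX-CT and ATRX-KD tumors, so that a count of 0 in a short list is near the background. The 12 macrophage markers summed to 2263 to 4427 FPKM in Balb/c and 2104 to 4518 FPKM in NSG tumors and had 0 calls in both host comparisons. The 10 dendritic cell markers summed to 43.0 to 108 and 33.5 to 87.3 FPKM, with 0 calls in ATRX-CT and 1 in ATRX-KD tumors, Clec10a, a lectin also found on macrophages (69.5 ± 13.7 against 29.8 ± 11.5 FPKM, adjusted p = 0.0246, limma). The 8 B cell markers summed to 2.13 to 3.55 and 1.63 to 5.93 FPKM. Cd207 and Epcam, markers of Langerhans cells in the skin, summed to 0.822 to 1.61 FPKM in Balb/c and 0.0524 to 0.748 FPKM in NSG tumors, with no overlap of the sums and 0 calls. Both were low, at most 1.09 and 1.11 FPKM. Taken singly, 1 of these 2 genes was apart between hosts in ATRX-CT and 0 in ATRX-KD tumors. Over all genes, 4.72% and 5.08% were apart in this direction. Endothelial markers summed to 30.5 to 116 and 13.5 to 46.9 FPKM, with Pecam1 called in ATRX-CT tumors. Of 8 T cell markers 5 and 6 were called as higher in Balb/c mice within ATRX-CT and ATRX-KD tumors, and of 6 NK cell markers 6 and 5. Among NSG tumors alone only 1 of the 8 and 1 of the 6 passed the filter of 0.1 FPKM. The others were tested between hosts only through the Balb/c tumors and could be called only as higher there. Keratinocyte, osteoblast and B cell markers had 0 calls, and only 4 of the 8 B cell markers were tested in each host comparison.

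The class II genes on chromosome 17 have other genes between them. Between the start of H2-DMa and the end of H2-Eb1 the annotation holds 11 genes, of which 6 are not among the 7 described here (H2-DMb2, Psmb9, Tap1, Psmb8, Tap2 and H2-Ob). All 6 were tested and 0 were called in any comparison of groups (limma), where 0.883% and 1.12% of all genes were called as higher in Balb/c mice within ATRX-CT and ATRX-KD tumors, so that a count of 0 among 6 is near the background. They had median log2 differences of 0.29 and 0.30 between hosts in ATRX-CT and ATRX-KD tumors. Psmb8, Psmb9, Tap1 and Tap2 serve the class I pathway.

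The genes most like the class II genes from tumor to tumor were found by the correlation of log2 (FPKM + 1), centered on group means, with the mean of the 7 genes, across the 12174 genes that averaged 1 FPKM or more. Pdcd1lg2, which encodes the ligand PD-L2 of antigen-presenting cells, was first, with r = 0.92 (rho = 0.95) over 18 tumors and r = 0.90 without the 2 tumors farthest from the median. It was followed by Clec9a, a receptor of cross-presenting dendritic cells (r = 0.87, rho = 0.86), and H2-DMb2 (r = 0.87, rho = 0.85), which shares stretches with H2-DMb1. The next were Hivep3, Slc29a2, Plet1, Btla, Cnot6l, Stx4a and Scarb1, down to r = 0.83 for Scarb1. Pdcd1lg2 ranged from 0.337 to 8.88 FPKM and Clec9a from 0.420 to 2.23 FPKM, with a mean of 1.005 FPKM, just above the cut of 1 FPKM. Among genes above that cut, the other dendritic cell markers ran from r = 0.27 (Clec10a) to 0.78 (Itgax). The macrophage markers ran from r = -0.55 (Cd68) to 0.24 (Csf1r) over 18 tumors. Within hosts their ranges were wider, from r = -0.96 (Fcgr1) to 0.85 (Csf1r) in Balb/c tumors and from -0.65 (Mertk) to 0.54 (Fcgr1) in NSG tumors. Fcgr1 and Csf1r had opposite signs in the 2 hosts, with r = -0.53 for Csf1r in NSG tumors. In Balb/c mice the class II mean moved with the slope along transcript length, whose part in these correlations was not tested.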

How the data were processed

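Total RNA had been depleted of ribosomal RNA and made into stranded libraries, and the authors aligned the paired 75 bp reads to mm10 with STAR 2.6.0c. Reads of quality under 20 and duplicates were removed before Cufflinks 2.2.1 gave values for RefSeq genes. Whether its counting used strand is not given in the sources used here. The deposited values are log2 (FPKM + 1), and no normalization between libraries is named. The study's own differential test used DESeq on counts, which were not used here. Base 2 was settled from the values. Fragments per library were estimated from low FPKM steps; only 36.8% to 45.7% of low values per library lay within 0.1 of a whole fragment, so no count test was run, and the floor of 3 fragments covers counting error only.

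Tumors were grouped by their labels. Each pair of groups was fitted alone, and the interaction in all 4 groups, with limma 3.58.1 in R 4.3.3 (lmFit, eBayes with trend) for genes averaging 0.1 FPKM or more, with Benjamini-Hochberg adjustment; the fits were tested on simulated data. The labels do not say how tumors were processed in batches. The p-values rest on the spread between tumors within groups and do not cover batch or cage differences between groups. Intervals are 95% and unadjusted. Ratios were compared by exact permutation tests in Python 3.11.15. Named genes are the 7 genes, Atrx, called or example genes of the lists, called neighbors on chromosome 17 (0), and the 10 genes most like the 7; the 6 neighbors, and other list genes given with values, were named after their values were seen. The members and lists were chosen with earlier results of these data known. Alternatives were another pseudocount (0.1), median-ratio scaling, other filters, library weights, a joint fit, removal of the trend with transcript length, and leaving out tumors. Some genes of the lists are not reported here by name.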

Additional observations from a re-analysis of the deposited data

Results flagged for a closer look

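In 4 of 100 groups of values checked, the highest or lowest tumor stood far from the rest of its group by Dixon's criterion, and chance flags about 1 in 20 groups. The mean log2 (FPKM + 1) of the keratinocyte markers was 2.82 in Balb/c ATRX-CT mouse 45, where the next highest tumor had 0.304, and 1.14 in Balb/c ATRX-KD mouse 60, where the next had 0.337. The log2 ratio of Ciita to H2-Ab1 was -5.03 in Balb/c ATRX-KD mouse 56, above the next tumor at -6.04. The same ratio was -6.26 in NSG ATRX-KD mouse 26, below the next at -5.93.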

How the results depend on the processing

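The 6 host calls among ATRX-KD grafts numbered 5 to 6 under all other settings and 5 to 7 without single tumors, and the 0 calls of the knock-down in either host and of the interaction stayed at 0 under every alternative run. The 2 calls between hosts in ATRX-CT tumors numbered 3 with all 4 groups in 1 fit, 2 with another pseudocount, median-ratio scaling or the length trend removed, 1 with a filter of 1 FPKM or with library weights, 0 with no filter, with the length slope as covariate or without the tumors holding keratinocyte transcripts, and 0 to 4 without single tumors. The causes were not tested. Uncalled differences changed sign in some settings. With library weights these were Ciita in Balb/c mice (-0.011), H2-Aa and H2-Ab1 in NSG mice (-0.091 and -0.10) and Ciita in the interaction (-0.065), and with the length trend removed Cd74 in the interaction (-0.047) and the log2 ratio of Ciita to H2-Ab1 for the knock-down in Balb/c mice (0.024) and for the hosts in ATRX-CT (-0.093) and ATRX-KD tumors (-0.074). Without the tumors holding keratinocyte transcripts, the knock-down in Balb/c mice gave 0.036 for H2-Aa to H2-Ab1 and 0.20 for Ciita to H2-Ab1, and the hosts in ATRX-CT tumors -0.013 for H2-DMb1 to H2-DMa.

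Without single tumors, log2 differences ran from -0.063 to 0.48 for Ciita in Balb/c mice and from -0.19 to 0.022 for H2-DMb1 in NSG mice. In the interaction they ran from -0.084 to 0.37 for H2-Aa, -0.056 to 0.34 for H2-Ab1, -0.15 to 0.28 for H2-Eb1, -0.25 to 0.21 for Cd74 and -0.22 to 0.32 for Ciita. Ratios in the knock-down comparison of Balb/c mice ran from -0.062 to 0.070 for H2-Aa to H2-Ab1, -0.067 to 0.085 for H2-Eb1 to H2-Ab1 and -0.33 to 0.14 for Ciita to H2-Ab1. In NSG mice they ran from -0.082 to 0.023 for H2-Aa to H2-Ab1, -0.078 to 0.16 for Cd74 to H2-Ab1 and -0.043 to 0.26 for Ciita to H2-Ab1. Between hosts they ran from -0.036 to 0.37 for H2-DMb1 to H2-DMa within ATRX-CT grafts, and within ATRX-KD grafts from -0.030 to 0.13 for Cd74 to H2-Ab1, -0.26 to 0.031 for H2-DMa to H2-Ab1 and -0.16 to 0.22 for Ciita to H2-Ab1.

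No paired analysis was possible because the groups share no mouse numbers. The H2-DMa difference of NSG mice reached an adjusted p of 0.0149 with library weights (limma), at -0.59, and stayed below a doubling. Median-ratio scaling changed no count of calls. Depth did not limit detection of the 7 genes, which exceeded the level of 3 fragments in all 18 tumors.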
